A study of Atriplex lentiformis with 8 samples.

Results

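The genes described here encode 9 proteins that write, erase or guide DNA methylation, or that make and use small RNAs: MET1, CMT3, DRM2, DDM1, ROS1, RDR2, DCL1, AGO4 and AGO1. Members were the assembled transcripts of Atriplex lentiformis whose best protein match in the TAIR10 set of Arabidopsis was one of these loci. This rule used no expression value, though the loci were chosen with earlier results of these data known. All 9 loci were matched, by 18 of 46492 transcripts, out of 12468 loci matched in all. Atriplex lentiformis is a desert saltbush, and its leaf RNA was sequenced from plants of 2 growth chambers. The cool group (4 libraries, a day temperature of 23 °C and a night temperature of 18 °C) carries a 16:3 lipid phenotype in the labels, and the hot group (4 libraries, 43 °C by day and 30 °C by night) an 18:3 lipid phenotype. Both groups had 16 hours of light at 120 microEinstein and are labelled with 8 weeks; no genotype, transgene or plant age is named, so chamber and temperature cannot be told apart. The values are the authors' mean FPKM (a fragment count divided by transcript length and library size) at each temperature, with the authors' log2 change, p and adjusted p. No value of a single library was analysed here, so no SD can be given, levels at one temperature cannot be ranked against their spread, and read depth is unknown.

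In Arabidopsis, cytosine methylation is placed by separate enzymes according to the bases that follow the cytosine. MET1 copies it at CG sites after DNA replication, CMT3 maintains it at CHG sites (H is any base but G) on methylated histones, and DRM2 places it anew where small interfering RNAs direct it. These RNAs arise when RDR2 turns short transcripts into double strands, a Dicer-like enzyme cuts them and AGO4 carries them to the target, whereas DCL1 and AGO1 do the equivalent for microRNAs. In plants these pathways silence transposons and set the levels of many developmental regulators.

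At 43 °C, the most abundant transcripts of the methylation writers CMT3, MET1 and DRM2 and of the remodeller DDM1 were higher. Those of the ARGONAUTE genes AGO1 and AGO4 were lower, though a second AGO1 transcript of nearly equal abundance did not pass. By the most abundant transcript of each gene, 5 of the 9 genes rose (CMT3, DDM1, MET1, DRM2 and RDR2), 2 fell (AGO4 and AGO1) and 2 did not pass (DCL1 and ROS1), where passing means an adjusted p below 0.05 in the authors' deposited table. Of the most abundant transcripts of all matched loci, 57.7% passed, 26.9% as higher and 30.9% as lower. Over the 18 transcripts, 9 were higher, 3 were lower and 6 did not pass, beside 38.5% of all transcripts passing (20.7% higher, 17.8% lower). Passing was thus common throughout the table, and counts over so few genes are a description. By the most abundant transcript, the median log2 change was 0.37 over the 9 genes, against -0.012 over all matched loci. The median of the 18 transcripts was 0.64, against 0.097 over all transcripts. The 3 of the 18 that were listed at 0 at 23 °C all stood above that median, and no fold is given for them. The length-weighted FPKM totals of the 2 columns differed, and bringing them to 1 total would add 0.25 to every log2 change; where this or centring on the median of all transcripts changes the call of a gene named here, it is said beside the gene or its role.

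**Figure D1:**
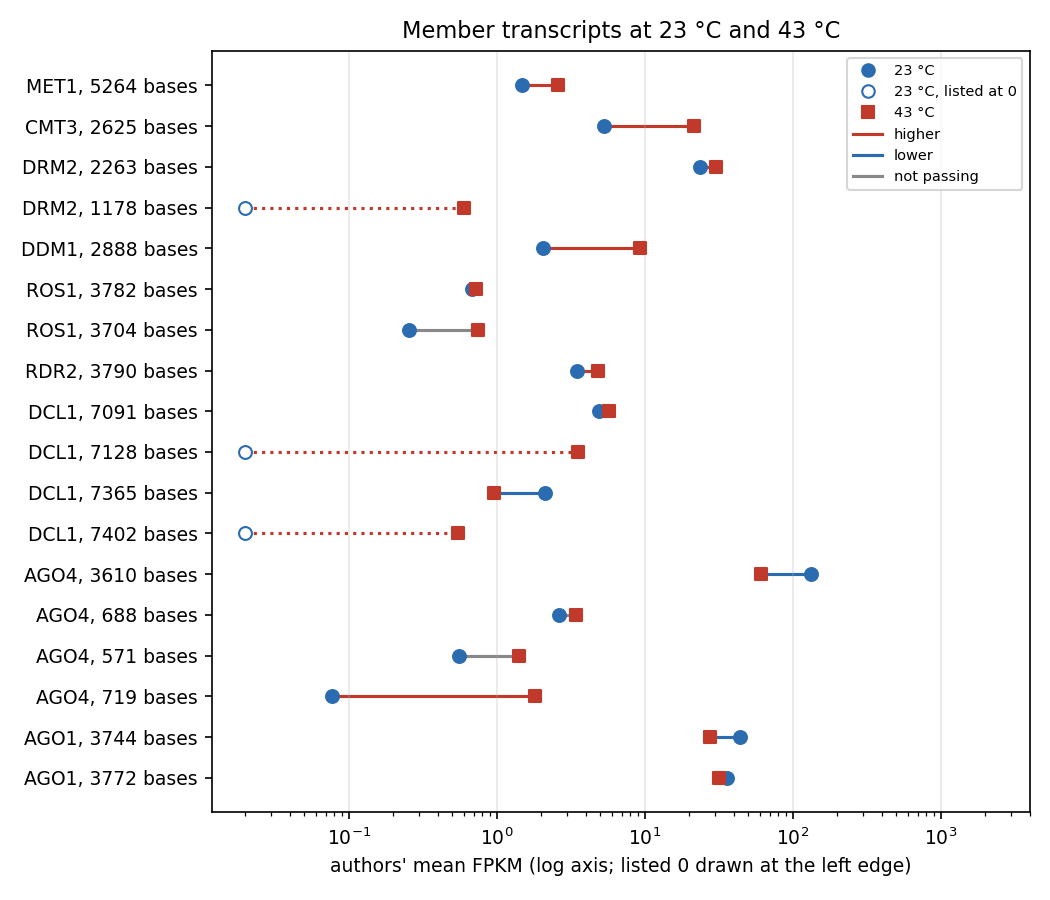
Authors' mean FPKM (log axis) of each of the 18 member transcripts, named by gene and length, at 23 °C (circles) and 43 °C (squares); the connecting line is coloured by the authors' call and dotted where the 23 °C value was listed at 0. CMT3 and DDM1 lie well to the right at 43 °C, the main AGO4 transcript moved left from 134 to 61.6 FPKM, and 3 transcripts have their 23 °C value listed at 0.

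CMT3 (AT1G69770), the chromomethylase of CHG sites, was matched by a single transcript of 2625 bases, at 5.32 FPKM at 23 °C and 21.7 FPKM at 43 °C. Its level was 4.08-fold higher in the hot leaves. On the log2 scale the authors' deposited table gives a change of 2.02 with an adjusted p of 1.22e-46. The approximate 95% interval of this change ran from 1.75 to 2.29. Such intervals rest on the standard error with which a normal test would return the p that the authors deposited. Among the 28934 transcripts with a mean of at least 1 FPKM, this change stood at percentile 93.5. The transcript shares the assembler's group name with 22 others that match no member, of which 11 rose, 1 fell and 10 did not pass. That group joins unlike proteins, among them histone H2A, an annexin and CMT1, so whether reads were divided between these transcripts is unknown. CMT1, a chromomethylase related to CMT3, was in the same group at 10.6 and 11.3 FPKM and did not pass (with an adjusted p of 0.548, from the authors' deposited table), though with equal totals it would pass as higher (log2 change 0.34). The difference between the 2 chromomethylases was not tested itself.

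MET1 (AT5G49160), the CG maintenance methyltransferase, had a single transcript of 5264 bases at 1.48 FPKM in the cool group and 2.61 FPKM in the hot group. The rise of 0.81 on the log2 scale passed (with an adjusted p of 0.00347, from the authors' deposited table; approximate 95% interval 0.33 to 1.29). MET1 was among the scarcer of the methyltransferases at each temperature. CMT3 had 3.59 times the FPKM of MET1 at 23 °C and 8.30 times at 43 °C.

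DRM2 (AT5G14620), the de novo methyltransferase, was more abundant. Its main transcript of 2263 bases went from 23.5 to 30.5 FPKM, which the authors' deposited table gives as 0.37 on the log2 scale (adjusted p = 1.15e-04; approximate 95% interval 0.20 to 0.54). This is a small change, and the interval of the deposited values lies below the 1.5-fold mark (0.58 on the log2 scale). With equal totals the log2 change was 0.62, above that mark. A transcript of 1178 bases, listed at 0 in the cool leaves and at 0.605 FPKM in the hot leaves, also passed as higher, but its match to DRM2 was weak (E value 3.3e-10). The main transcript shares its group name with a RAD23 transcript, a ubiquitin receptor of DNA repair, which fell from 26.3 to 17.8 FPKM. DRM2 had 4.43 times the FPKM of CMT3 at 23 °C and 1.44 times at 43 °C, with all transcripts of each gene summed, so the levels of the 2 enzymes were closer in the hot leaves.

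DDM1 (AT5G66750), a chromatin remodeller that lets methyltransferases reach compact chromatin in Arabidopsis, had the highest log2 change among the most abundant transcripts of the 9 genes. Its single transcript of 2888 bases was at 2.05 FPKM at 23 °C and 9.37 FPKM at 43 °C, 4.57-fold higher. On the log2 scale it rose by 2.18 (with an adjusted p of 1.20e-26, from the authors' deposited table; approximate 95% interval 1.79 to 2.57), close to that of CMT3, and the 2 intervals overlap. Its level was 1.38 times that of MET1 in the cool leaves and 3.59 times in the hot leaves.

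ROS1 (AT2G36490), a DNA glycosylase that removes methylated cytosine, was at low levels. One of its transcripts (3782 bases) was at 0.685 and 0.730 FPKM and the other (3704 bases) at 0.255 and 0.750 FPKM. Neither passed, at adjusted p of 0.941 and 0.248 by the authors' deposited table. The approximate 95% intervals, -0.97 to 1.12 and -0.49 to 3.55, admit changes of over 2-fold, so a change of that size is not excluded. Summed over both transcripts, ROS1 went from 0.940 to 1.48 FPKM, the lowest of the 9 genes at each temperature.

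RDR2 (AT4G11130), the polymerase that makes the double-stranded precursors of silencing RNAs, had a single transcript of 3790 bases. It was at 3.47 FPKM in the cool leaves and 4.88 FPKM in the hot leaves, a rise of 0.48 on the log2 scale (with an adjusted p of 0.0127, from the authors' deposited table; approximate 95% interval 0.15 to 0.80). The call ended when log2 changes were centred on the median of all transcripts and at a threshold of 0.01.

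DCL1 (AT1G01040), the Dicer-like enzyme of microRNA precursors, was matched by 4 long transcripts of 1 assembly group that did not move alike. The most abundant, of 7091 bases, was at 4.92 and 5.78 FPKM and did not pass (0.22 on the log2 scale with an adjusted p of 0.304, both from the authors' deposited table; approximate 95% interval -0.10 to 0.54). With equal totals it would pass as higher (log2 change 0.47). The transcript of 7128 bases was listed at 0 in the cool group and at 3.52 FPKM in the hot group (with an adjusted p of 4.41e-84, from the authors' deposited table). The transcript of 7402 bases was likewise listed at 0 in the cool group, at 0.545 FPKM in the hot group, and it passed as higher. In the opposite direction, the transcript of 7365 bases fell from 2.12 to 0.958 FPKM (with an adjusted p of 0.00753, from the authors' deposited table). Summed over the locus, DCL1 went from 7.04 to 10.8 FPKM. The 2 transcripts listed at 0 in the cool leaves made up 4.07 FPKM, or 37.6%, of the sum in the hot leaves, and without them the sums were 7.04 and 6.74 FPKM. The share of the 7091-base form in the locus sum went from 69.9% to 53.5%. Whether the forms differ by splicing, by allele or by assembly was not tested.

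**Figure D2:**
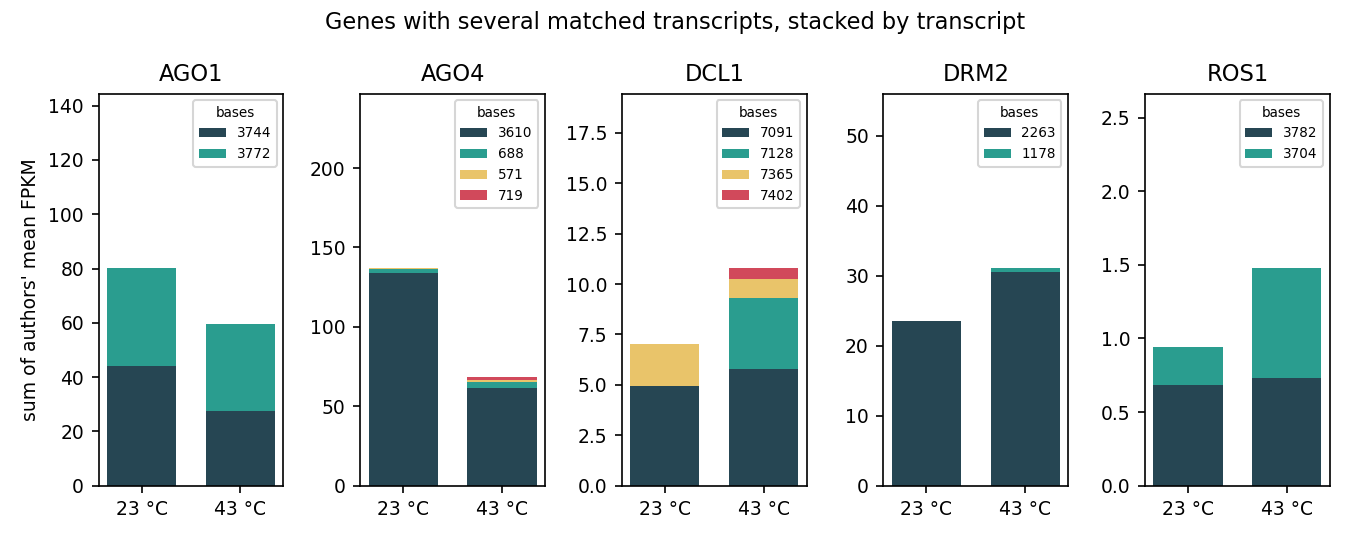
Sum of the authors' mean FPKM over the transcripts of the 5 genes with several matches, at 23 °C and 43 °C, stacked by transcript (length in bases in each legend); each panel has its own axis from 0. For DCL1 the added height at 43 °C lies in the 7128-base and 7402-base forms, and for AGO4 the 3610-base form makes up nearly the whole bar.

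AGO4 (AT2G27040), the ARGONAUTE of RNA-directed DNA methylation, was the most abundant of the 9 genes and fell. Its main transcript of 3610 bases was at 134 FPKM at 23 °C, at percentile 98.3 of all transcripts by mean abundance, and at 61.6 FPKM at 43 °C. In the authors' deposited table this is a log2 change of -1.13 (adjusted p = 7.91e-49; approximate 95% interval -1.28 to -0.98). It was -0.88 with equal totals and still passed. Its 3 short transcripts had weak matches (E values from 6.9e-14 to 2.6e-08). Those of 688 and 571 bases share a group name with 3 transcripts that have no match, all 3 called higher. Whether the short forms belong to AGO4 was not tested. The 719-base one rose from 0.0775 to 1.81 FPKM (with an adjusted p of 3.97e-04, from the authors' deposited table), and those of 688 bases (2.62 and 3.46 FPKM) and 571 bases (0.560 and 1.42 FPKM) did not pass. Summed over all 4 transcripts, AGO4 went from 137 to 68.2 FPKM, 2.01-fold lower at 43 °C.

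AGO1 (AT1G48410), which loads microRNAs and cuts their targets, was matched by 2 transcripts of nearly equal length and abundance. The 3744-base transcript fell from 44.0 to 27.6 FPKM (-0.68 on the log2 scale with an adjusted p of 2.61e-09, both from the authors' deposited table; approximate 95% interval -0.89 to -0.47). Its companion of 3772 bases was at 36.2 and 32.0 FPKM and did not pass (-0.19 on the log2 scale with an adjusted p of 0.192, both from the authors' deposited table; approximate 95% interval -0.41 to 0.035). For that form the log2 change was 0.064 with equal totals, and it passed as lower after median centring. The 3744-base form still passed with equal totals (log2 change -0.43), but not in the size test against 1.5-fold. The sum of the pair went from 80.3 to 59.5 FPKM, a log2 ratio of -0.43, which was -0.18 with equal totals. Since such close forms can share reads, the sum is the firmer value, and the difference between the forms was not tested.

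The order of the summed levels changed little. At 23 °C it ran AGO4, AGO1, DRM2, DCL1, CMT3, RDR2, DDM1, MET1 and ROS1, and at 43 °C CMT3 stood above DCL1 and DDM1 above RDR2. The range narrowed: AGO4 had 146 times the FPKM of ROS1 in the cool leaves and 46.1 times in the hot leaves. That ratio rests in part on low ROS1 sums (0.940 and 1.48 FPKM), with no ROS1 transcript passing. AGO4 had 1.71 times the FPKM of AGO1 at 23 °C and 1.15 times at 43 °C. Together these 2 ARGONAUTE genes held 83.2% of the summed FPKM of the 9 genes at 23 °C and 60.9% at 43 °C, while the other 7 genes summed to 43.8 and 82.0 FPKM. By locus sums, which carry no test, 7 genes were higher and 2 were lower at 43 °C. The 7 include ROS1, of which neither transcript passed. They also include DCL1, whose sums without the 2 forms listed at 0 were 7.04 and 6.74 FPKM. The same count over all matched loci is not given here, so no share stands beside it.

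**Figure D3:**
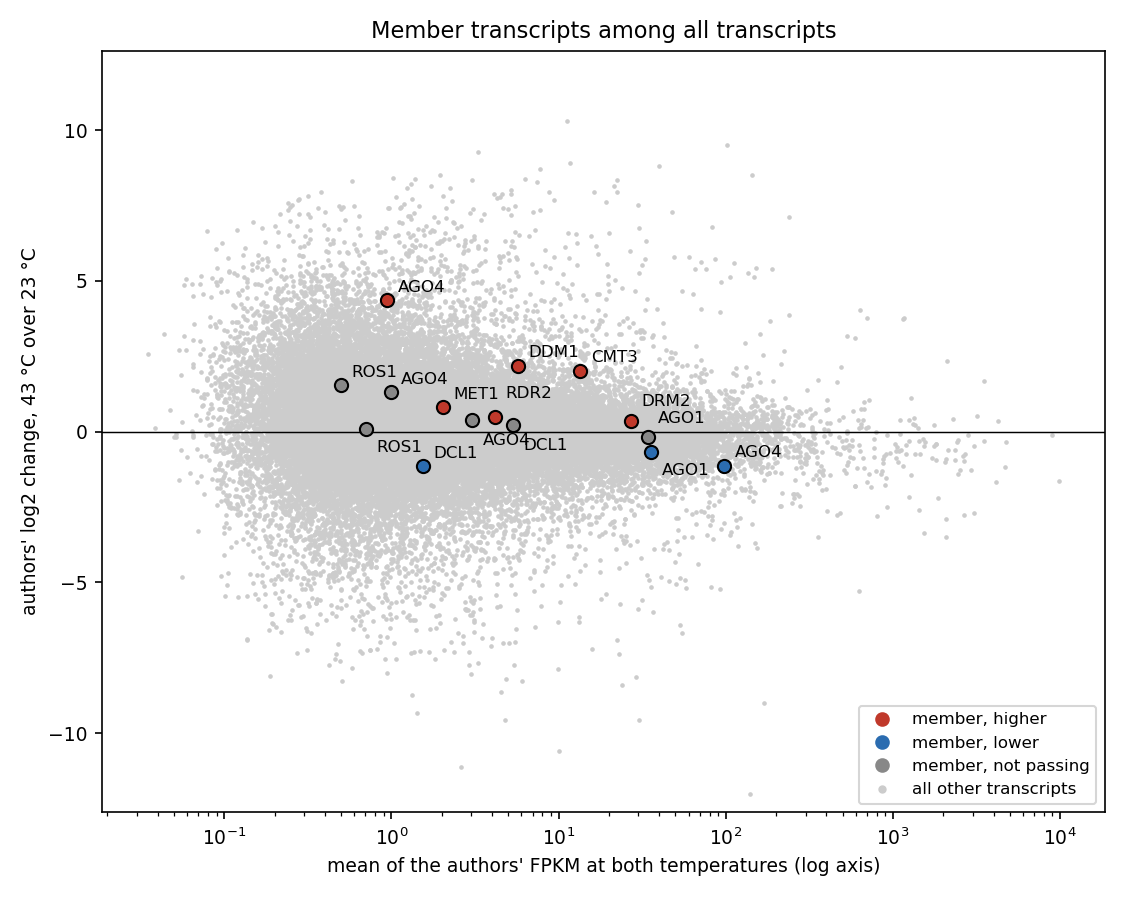
Authors' log2 change of 43 °C over 23 °C against the mean FPKM of both temperatures (log axis) for all transcripts with values above 0 at each temperature (grey) and for the member transcripts among them (coloured by call, labelled by gene). CMT3 and DDM1 lie near 2 on the vertical axis at middle abundance, and the main AGO4 transcript lies at -1.13 among the abundant transcripts, where the grey cloud is narrow.

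A longer list of 102 Arabidopsis genes in 8 roles placed the 9 genes among their partners, and 77 of these genes had a match. Over the 68 matched genes that are not among the 9, 21 rose, 15 fell and 32 did not pass by their most abundant transcript, so 36 passed (52.9%, against 57.7% of all matched loci). Their median log2 change was 0.087, and over all matched loci it was -0.012. This direction depended on the scaling: with equal totals 36 of the 68 would be higher and 10 lower, and after median centring 17 and 17. Over all 226 transcripts of the list, 58 were higher and 35 lower (62.4% of calls higher, against 53.7% over all transcripts). With equal totals they were 82 and 29 (73.9%, against 68.4% over all transcripts). Beside the counts by role and by marker list that follow, 26.9% of all matched loci were called higher and 30.9% lower.

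Among the DNA methyltransferases, none of the other matched genes was called higher beside CMT3, MET1 and DRM2. DRM3, a relative of DRM2 without catalytic activity in Arabidopsis, fell from 12.4 to 3.26 FPKM (-1.93 on the log2 scale with an adjusted p of 6.71e-19, both from the authors' deposited table), and a second DRM3 transcript fell from 5.83 to 1.38 FPKM. CMT2, the chromomethylase of CHH sites, did not pass at 8.37 and 6.87 FPKM, though another of its transcripts rose from 0.795 to 3.26 FPKM. After median centring CMT2 would pass as lower (log2 change -0.39). In all, 3 of 7 genes of this role rose and 1 fell, with equal totals 5 and 1 (CMT1 and DNMT2 added as higher). The role of maintenance partners had 4 of 8 genes higher and none lower, under each of the 3 scalings, beside 26.9% of all matched loci called higher as deposited. Without DDM1 it was 3 of 7, with a median log2 change of 0.019. In it, the histone demethylase IBM1, which keeps CHG methylation out of genes, rose from 4.43 to 10.4 FPKM. The histone methyltransferase SUVH5 rose from 0.103 to 0.963 FPKM, both low values. HDA6, a histone deacetylase (12.4 and 12.6 FPKM), and the silencing factor MOM1 (11.1 and 10.3 FPKM) did not pass.

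For active demethylation the calls were divided. The glycosylase DME, a relative of ROS1, fell from 34.9 to 26.7 FPKM and was thus far more abundant than ROS1 at each temperature. SUVH3, a reader of methylated DNA, fell from 35.4 to 27.9 FPKM. The repair enzymes ZDP (1.64 to 3.56 FPKM) and APE1L (3.71 to 6.54 FPKM), which act after the glycosylase, rose, while MBD7 (16.2 and 14.4 FPKM) and the acetyltransferase IDM1 (11.0 and 11.5 FPKM) did not pass. With equal totals DME and SUVH3 no longer passed and IDM1 passed as higher, so that 3 genes of this role were higher and none lower in place of 2 and 2. After median centring APE1L did not pass, which left 1 higher and 2 lower, and at a threshold of 0.01 neither ZDP nor APE1L passed.

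In RNA-directed DNA methylation, 4 of 18 matched genes rose, 5 fell and 9 did not pass. NRPD1, the largest subunit of the polymerase that supplies RDR2 with its templates, fell from 15.8 to 5.62 FPKM (-1.50 on the log2 scale with an adjusted p of 2.88e-49, both from the authors' deposited table), whereas RDR2 itself rose. NRPD2, a subunit of both plant-specific polymerases, did not pass at 16.4 and 16.8 FPKM, and neither did NRPE5 at 23.7 and 28.0 FPKM, which would pass as higher with equal totals (log2 change 0.48). The main transcript of UBP26, a ubiquitin protease, fell from 13.6 to 4.26 FPKM, but another rose from 1.64 to 4.26 FPKM. DMS3, a part of the complex that recruits the downstream polymerase, rose from 8.45 to 13.7 FPKM, and the remodeller CLSY4 rose from 0.153 to 0.568 FPKM. The split of this role was 8 higher and 3 lower with equal totals, and 2 and 5 after median centring.

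Of the 7 matched ARGONAUTE genes, 4 fell, none rose and 3 did not pass. Besides AGO4 and AGO1 these were AGO7, which acts with a single microRNA in leaf development (3.44 to 1.52 FPKM), and AGO5 (29.6 to 17.2 FPKM). Their adjusted p were 2.55e-05 and 4.07e-12 by the authors' deposited table. AGO10, the closest relative of AGO1, did not pass at 12.8 and 13.6 FPKM, and neither did AGO6, a relative of AGO4, at 5.87 and 6.63 FPKM. The 4 falls passed with equal totals too (for AGO1 by its 3744-base form), when AGO10 would pass as higher (log2 change 0.33). The summed FPKM of the ARGONAUTE transcripts went from 285 to 182, and 30.9% of all matched loci were called lower.

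The Dicer-like enzymes and their partners had 6 of 15 genes higher and 1 lower. TGH, an RNA-binding partner of DCL1, rose from 5.29 to 9.90 FPKM. DCL2, which makes small RNAs from viral and other long duplexes, fell from 17.9 to 10.9 FPKM. As for DCL1, the forms of DCL4 moved apart: a 5612-base transcript rose from 1.97 to 3.64 FPKM and a 5530-base transcript fell from 3.82 to 1.02 FPKM. DCL4 is counted as higher by the 5612-base form, but the sum of its 14 transcripts went from 8.58 to 7.37 FPKM. The phosphatase CPL1 (13.5 and 14.9 FPKM) and DDL (15.7 and 16.0 FPKM), both of microRNA processing, did not pass. With equal totals 13 genes of this role would be higher, CPL1 (log2 change 0.39) and DDL (0.28) among them.

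The RNA-dependent RNA polymerases were also divided, with 4 of 8 genes of that role higher and 3 lower. RDR6, the polymerase of trans-acting small RNAs, rose from 7.19 to 12.4 FPKM. The main transcript of RDR3 rose from 1.87 to 5.21 FPKM, while a transcript of 3543 bases did not pass at 3.28 and 2.64 FPKM. RDR1, known for antiviral defence, fell from 22.4 to 10.4 FPKM and RDR5 from 11.8 to 5.73 FPKM; another RDR5 transcript went from a listed 0 to 3.94 FPKM. SDE5 did not pass at 8.22 and 7.25 FPKM. For small RNA methylation, export and turnover, 3 of 7 genes rose and 1 fell. FBW2, an F-box protein that targets AGO1 protein for breakdown in Arabidopsis, rose from 93.8 to 215 FPKM (1.19 on the log2 scale with an adjusted p of 7.06e-47, both from the authors' deposited table). URT1, which adds uridines to RNA ends, rose from 12.4 to 19.4 FPKM, and the exportin HST fell from 14.1 to 11.9 FPKM, a call lost with equal totals. SDN3 (13.6 and 11.7 FPKM) and SQN (10.6 and 12.5 FPKM) did not pass. SQN would pass as higher with equal totals (log2 change 0.48), and SDN3 as lower after median centring (-0.31).

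**Figure D4:**
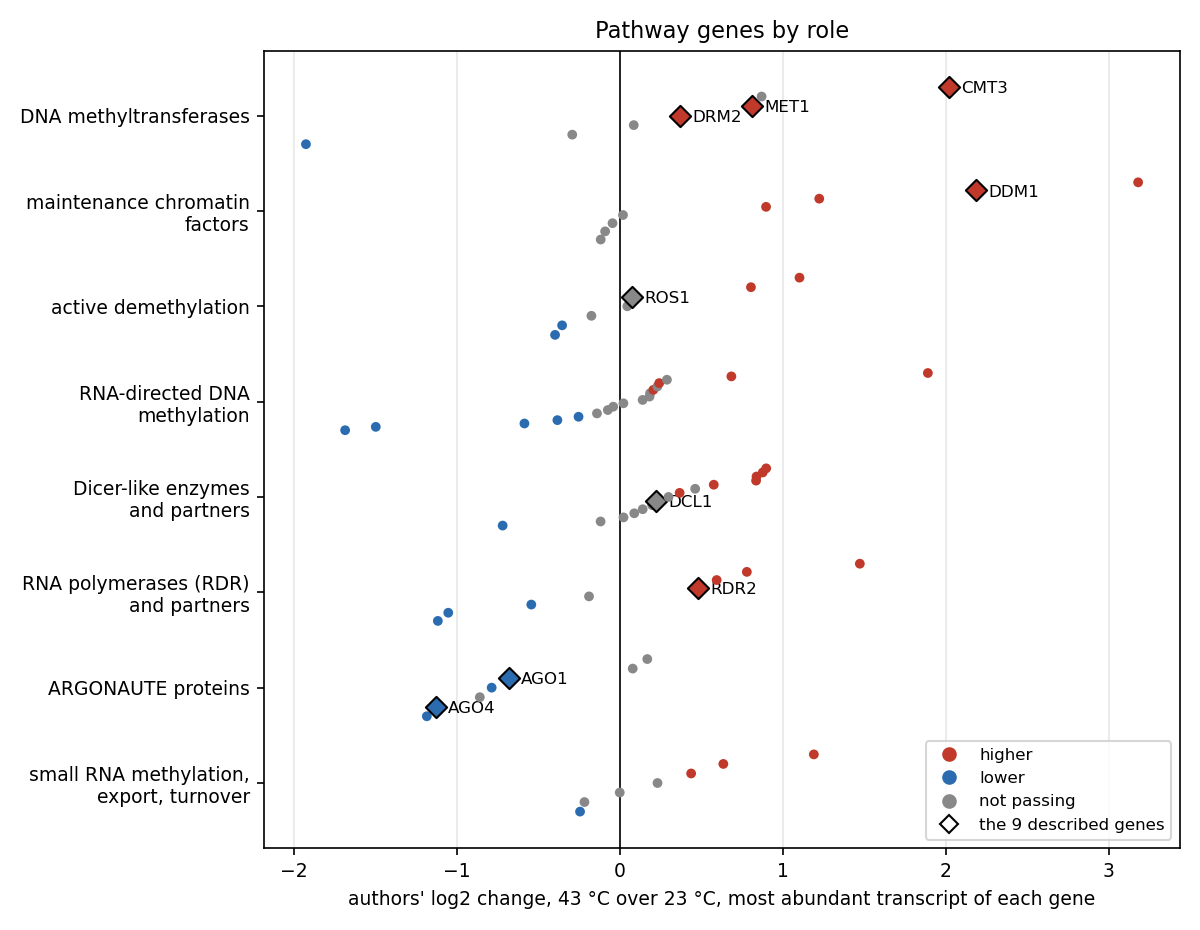
Authors' log2 change of 43 °C over 23 °C for the most abundant transcript of each of the 77 matched pathway genes, arranged by role; diamonds with names are the 9 genes, circles the others, and colour gives the authors' call. No ARGONAUTE gene and 4 of 8 maintenance chromatin factors are called higher.

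Genes of dividing cells moved in the same direction as CMT3, DDM1 and MET1, whose Arabidopsis counterparts are known to be expressed in dividing tissue. Of 16 markers of dividing cells 13 were matched, and of these 11 rose, none fell and 2 did not pass (13 higher with equal totals, 10 after median centring). Their median log2 change was 1.12, and their summed FPKM went from 51.0 to 103. RNR1, a ribonucleotide reductase subunit, rose from 6.90 to 19.6 FPKM, and the replication clamp PCNA2 from 7.71 to 15.7 FPKM. VIM1, a partner of MET1 at newly copied DNA, rose from 4.19 to 7.83 FPKM. Of 10 markers of shoot meristem and flowers 3 were matched: STM rose from 0.0375 to 4.67 FPKM, KNAT1 went from a listed 0 to 3.27 FPKM, and AP3 did not pass at 3.44 and 1.65 FPKM. Of 7 leaf mesophyll markers 5 were matched and all 5 fell by their most abundant transcript, among them RBCS1A from 3882 to 3154 FPKM. The main transcript of RCA fell from 1125 to 457 FPKM, but its other transcript rose from 267 to 414 FPKM and was called higher. With equal totals 3 of the 5 would be lower, and RBCS1A (log2 change -0.053) and LHCA1 (-0.059) would not pass. The main transcript of LHCB1.3 fell from 5298 to 824 FPKM, while the sum of its 7 transcripts went from 16749 to 7014 FPKM, 2.39-fold lower, and a transcript at 2912 and 2722 FPKM did not pass. The part of these markers in the levels of the 9 genes was not tested. In RNA of whole leaves, fewer cells of a type and less RNA per cell cannot be told apart.

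**Figure D5:**
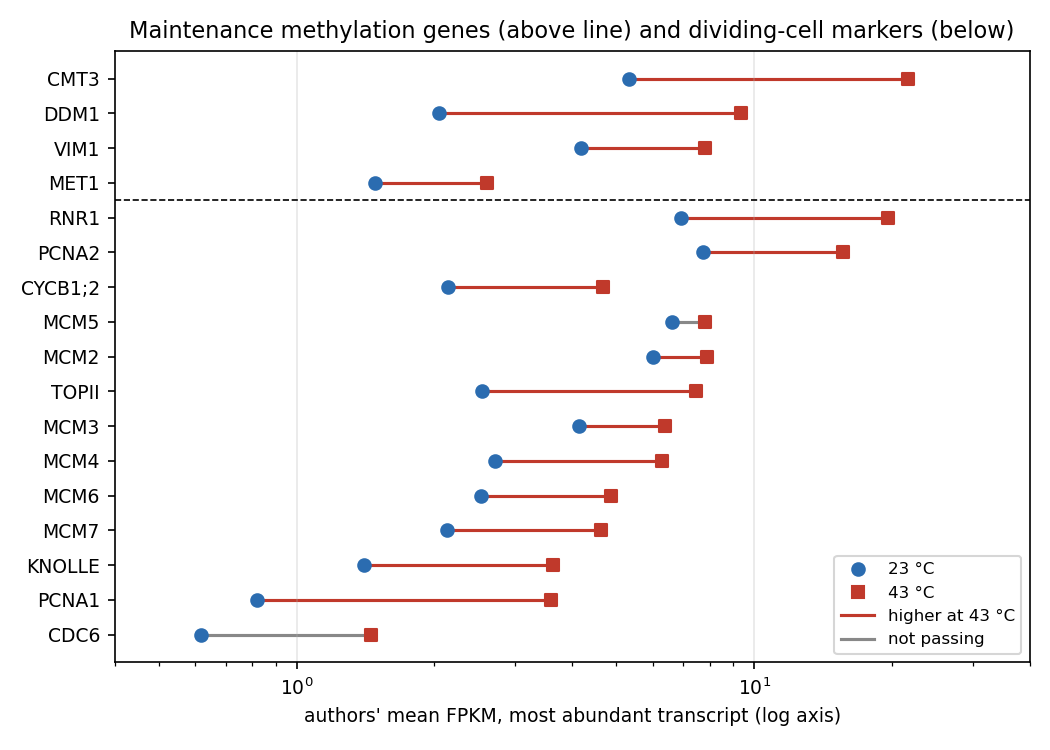
Authors' mean FPKM (log axis) of the most abundant transcript at 23 °C (circles) and 43 °C (squares) for 4 maintenance methylation genes above the dashed line and 13 matched markers of dividing cells below it; the line colour gives the authors' call. Every pair is higher at 43 °C, and MCM5 and CDC6 did not pass, though both would with equal totals. The 4 genes above the line were picked and all were called higher, with VIM1 added after its values were seen. The other maintenance partners are not drawn. By their most abundant transcript IBM1 and SUVH5 were called higher, and HDA6, MOM1, SUVH4 and SUVH6 did not pass. Another SUVH4 transcript rose from 2.27 to 7.51 FPKM, and another SUVH6 transcript from 2.21 to 3.86 FPKM, both called higher.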

How the data were processed

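Leaf RNA of 8 libraries was sequenced, 4 per temperature, with groups read from the titles of the samples. CASAVA 1.8.2 and Bowtie2 appear in the submitters' processing notes without a stated role. The sources used here name no assembler, counting tool, normalization or test. The deposited table gives FPKM per transcript and temperature per the file headers; all values were multiples of 0.0025 (within 1e-6), and each was therefore read as the authors' mean of 4 libraries. It also gives the authors' deposited log2 change, p-value and FDR, and the best BLASTx match in TAIR10 proteins with its E value. The FDR equalled a Benjamini-Hochberg adjustment of p over all 46492 transcripts to within 3.2e-07. Transcript sequences and genome positions were not used here.

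Since only means were given, the test on single libraries planned for that case was not run, and calls are the authors' adjusted p below 0.05. Replicate numbers could not be used. The members and the lists of 102 pathway genes and 33 markers were chosen with earlier results of these data known. Named genes outside the 9 were, per role, up to 2 highest and 2 lowest passing and 2 most abundant not passing. VIM1, KNAT1, RCA and second transcripts were added after their values were seen. Summed FPKM, ratios and approximate standard errors were computed with Python 3.11.15, pandas 2.3.3 and scipy 1.17.1 and the adjustment was tested on simulated data. Alternatives were a stricter threshold (0.01), abundance minima (mean FPKM of 1 and of 5), 3 pseudocounts (0.1, 1 and 5), equal totals, median centring, E values of at most 1e-30, a size test against 1.5-fold and locus sums; for scalings and for the size test the calls are approximations that use those standard errors.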

Additional observations from a re-analysis of the deposited data

How the results depend on the processing

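No paired analysis was possible because the table holds 1 mean per temperature, so neither the replicate block nor leaving out a replicate could be computed. Among the 18 member transcripts, pseudocounts changed no direction. The 9 higher transcripts became 3 at a minimum mean of 5 FPKM, where fewer are tested, and the 3 lower became 1 (AGO4) in the size test. The 58 higher and 35 lower transcripts of the longer list became 37 higher at a minimum of 1 FPKM, 22 and 18 at a minimum of 5 FPKM, and 30 and 19 in the size test. Among the genes named in the text, directions turned as follows. With equal totals the LHCB1.3 transcript at 2912 and 2722 FPKM turned. The log2 change was then 0.064 for the 3772-base AGO1 transcript and for SDE5, and 0.079 for MBD7. It was 0.0093 for HST, 0.036 for SDN3, 0.14 for MOM1, 0.16 for SUVH4 and 0.21 for SUVH6. After median centring it was -0.021 for the 3782-base ROS1 transcript, -0.075 for NRPD2 and DDL, -0.078 for HDA6, -0.012 for CMT1, -0.051 for IDM1 and -0.018 for AGO10. None of these passed after the turn; some genes of the longer list that are not named in the report, such as MORC2, turned too. Restricting locus sums to E values of at most 1e-30, chosen after seeing the data, gave log2 ratios of -1.12 for AGO4 (main value -1.01) and 0.38 for DRM2 (0.40). Low levels limit what can be called: below a mean of 1 FPKM the smallest log2 change that passed was 0.93, against 0.16 above 20 FPKM.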
